A study of Mus musculus with 15 samples.

Results

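The genes described here are the nuclear end of canonical Wnt signalling: Ctnnb1, the gene for beta-catenin, the TCF/LEF factors Tcf7, Lef1 and Tcf7l2, and the classic target genes Sp5, Myc, Ccnd1 and Cd44. Their probes were taken by name, as every array probe whose gene name, brought up to date through its accession, is one of these 8 symbols. The 8 genes themselves were chosen with earlier results of these data known. That gave 20 of the 41174 probes on the array: 1 each for Sp5 and Ccnd1, 2 for Tcf7, 3 each for Lef1, Myc, Cd44 and Ctnnb1, and 4 for Tcf7l2. The array also carries probes under the older names Tcf1 and Tcf4, whose accessions belong to other genes, and these are not members. Of the 20 probes, 19 passed the filter on dim probes: in 1 or more of the groups, all arrays had to show the spot well above background. The exception was the Lef1 probe A_52_P333110, which was well above background on 0 of 15 arrays.

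Female Swiss Webster mice received the colon carcinogen azoxymethane at 7.4 mg/kg by intraperitoneal injection and then 3 cycles of 4% dextran sulfate sodium, which injures the colon lining, each cycle being 7 days of the agent and 21 days of plain water. They were 7 weeks old at the start, 9 weeks old at the first cycle and 18 weeks old when killed, and had been randomised to vehicle or to 75 mg/kg of 5-aminosalicylic acid (5-ASA), the anti-inflammatory drug mesalamine. The vehicle mice carry the label untreated. Inflamed or polypoid areas of colon were cut by laser capture from 5 µm frozen sections, and the captured RNA was amplified in 2 rounds and hybridised beside a universal mouse reference RNA on 2-colour long-oligonucleotide arrays. The 4 groups, untreated inflamed, 5-ASA inflamed, untreated polypoid and 5-ASA polypoid tissue, held 2 animals each. All 4 groups had received azoxymethane and dextran sulfate sodium, so no group stands for healthy colon, and a captured area can hold epithelium, stroma and immune cells. Each animal was hybridised in both dye orientations except 5-ASA inflamed replicate 2, which has 1 array.

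In the absence of Wnt ligand, beta-catenin is held at the cell membrane in adherens junctions or is degraded by a complex built on APC and AXIN. When that complex is inactive, beta-catenin enters the nucleus and binds TCF/LEF factors, which sit on DNA sites with the core letters CTTTG and otherwise act with Groucho/TLE repressors. In the intestine this pathway maintains crypt stem and progenitor cells, and its activation by mutation of Apc or Ctnnb1 is the usual first step of colon adenomas, including those induced by azoxymethane.

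Values are log2 of the sample over the reference RNA, 1 value per animal, so a level of 0 means as much signal as in the reference; levels of different genes or probes are not set against each other. Differences are between group means, in log2 with the standard error (SE) of the limma fit over 8 animals, and a gene was said to rise or fall where its Benjamini-Hochberg adjusted p, taken over all 21301 genes tested, was under 0.05. Median sample signal lay between 148 and 255 scanner units across the 15 arrays, and between 57.3% and 90.8% of probes were well above background. The arrays were scanned in 4 sessions, and the animals of any 1 group were never in the same session, so the spread between animals also holds the difference between sessions. Sessions 1 and 4 held inflamed animals only, session 2 polypoid animals only, and session 3 both. Part of the tissue difference therefore cannot be told apart from a difference between sessions. Nothing in the labels ties the number of a replicate to a litter or a day. By scan session, however, replicate 1 animals were all in session 1 or 2 and replicate 2 animals all in session 3 or 4.

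In polypoid against inflamed tissue, both arms together, 6 of the 8 genes rose: Sp5 (27.3-fold), Lef1 (4.95-fold), Tcf7 (4.10-fold), Cd44 (3.87-fold), Myc (3.72-fold) and Ccnd1 (2.37-fold). Across all genes 5.93% were called in either direction, 3.97% rose and 1.97% fell. The counts of the gene and marker lists below in this comparison are to be read beside the same shares. Since the 8 genes were chosen with earlier results of these data known, their count and median are not independent of those results. Ctnnb1 was 1.97-fold higher and Tcf7l2 1.61-fold lower in polypoid tissue, and neither passed the test. The median difference over the 8 genes was 1.92 on the log2 scale, against -0.02 over all genes. In each of the 6 genes that rose, all 4 polypoid animals lay above all 4 inflamed animals, an arrangement found in 8.37% of all genes; the opposite arrangement was found in 7.91% of all genes and in 0 of the 8. Sp5 differed by 4.77 in log2 here and by 5.56 with the scanner software's processed signals, over 1.5 times as large as a fold. With the mean of a gene's probes the differences were smaller for Lef1 (1.40), Myc (1.23), Cd44 (1.12) and Tcf7 (1.002), and each still passed. Read probe by probe, 8 of the 19 probes that passed the filter rose, against 4.83% of all probes called in either direction and 3.33% rising. In bulk tissue of this kind, fewer cells of a type and less RNA per cell cannot be told apart.

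**Figure D1:**
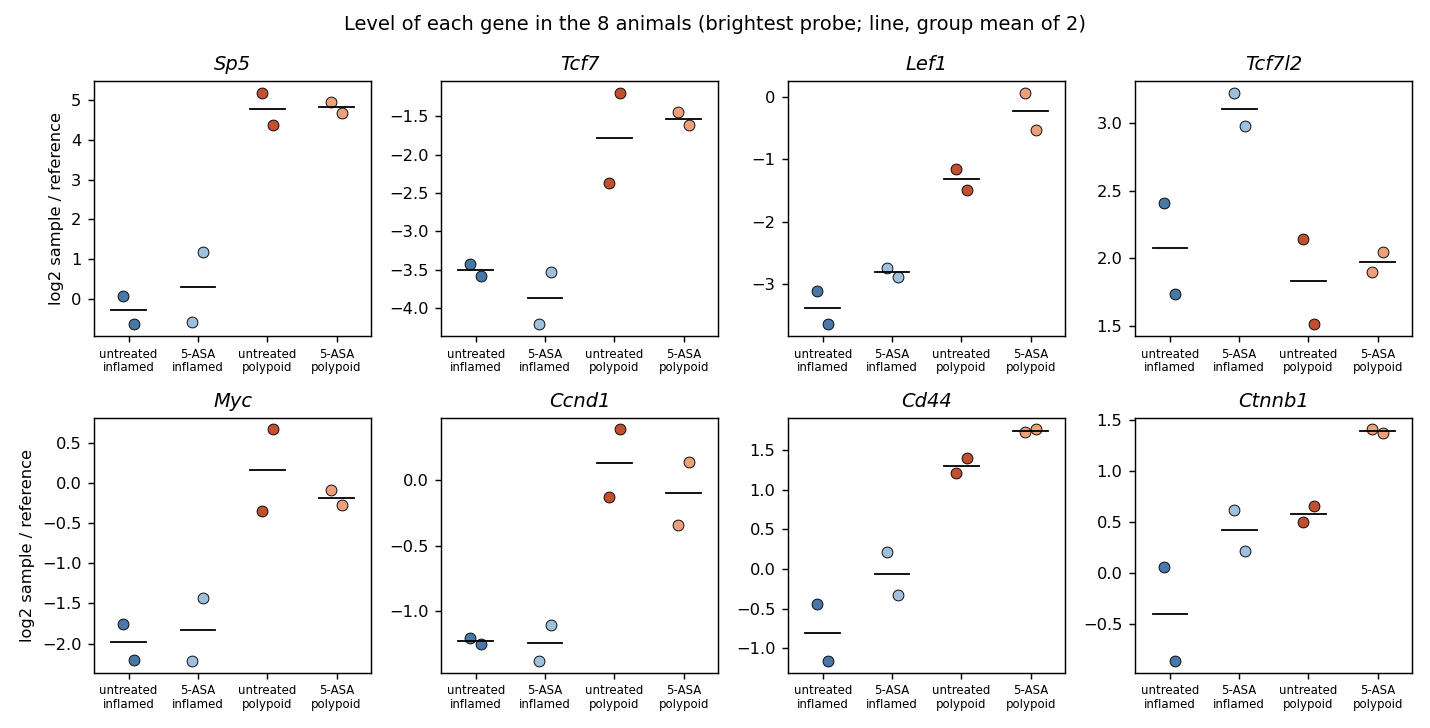
Level of each of the 8 genes (log2 of sample over reference, brightest probe) in the 8 animals, by group; points are animals and the short line is the mean of 2. Sp5, Tcf7, Lef1, Myc, Ccnd1 and Cd44 are separated by tissue without overlap, while Tcf7l2 and Ctnnb1 overlap between tissues.

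Ctnnb1 encodes beta-catenin itself, whose amount is set mainly by protein degradation. Its brightest probe, A_52_P424585, read 0.06 and -0.87 in the untreated inflamed animals, 0.61 and 0.21 in the 5-ASA inflamed, 0.49 and 0.65 in the untreated polypoid, and 1.41 and 1.37 in the 5-ASA polypoid animals. The 5-ASA polypoid animals were the highest and untreated inflamed replicate 2 the lowest, and the untreated polypoid animals overlapped with the 5-ASA inflamed ones. The tissue difference was 0.98 ± 0.22 (SE; adjusted p = 0.0591, limma). It passed when untreated inflamed replicate 1 was left out (1.21, adjusted p = 0.0285), with the scanner software's processed signals (adjusted p = 0.0434) and with the replicate number as a block (adjusted p = 0.0454). This probe was saturated on 1 of the 15 arrays, from a 5-ASA polypoid animal. The other probes of Ctnnb1 gave 0.61 ± 0.28 (A_51_P272046) and 1.07 ± 0.32 (A_52_P472397), the same direction, and neither passed.

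Among the TCF/LEF factors, Lef1 and Tcf7 rose and Tcf7l2 did not. Lef1, a factor that in the normal intestine is found mainly in lymphocytes and in early development, read -3.11 and -3.64 in untreated inflamed, -2.73 and -2.88 in 5-ASA inflamed, -1.16 and -1.49 in untreated polypoid, and 0.06 and -0.54 in 5-ASA polypoid animals by its probe A_51_P501145. The groups stood in that order with no overlap between any neighbouring pair, so every inflamed animal was below every polypoid animal. How many of all genes have their 4 groups apart in this way was not counted. The tissue difference was 2.31 ± 0.19 (adjusted p = 0.00562) and passed with each animal left out in turn (2.16 to 2.46, highest adjusted p = 0.0432). The second Lef1 probe that passed the filter, A_51_P420400, had a mean signal of 173 units against 808 units for the first. It gave 0.49 ± 0.13 (adjusted p = 0.0931 over the 30166 probes that passed the filter), and all 4 polypoid animals were above the 4 inflamed ones on it as well. With the scanner software's processed signals this probe gave 1.001 and passed (adjusted p = 0.0282), and it also passed with the replicate number as a block (adjusted p = 0.0407).

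Tcf7, which encodes TCF1, a factor best known from T cells and itself a Wnt target in the intestine, read -3.43 and -3.59 in untreated inflamed and -4.21 and -3.53 in 5-ASA inflamed tissue on probe A_52_P244702. In polypoid tissue it read -2.37 and -1.19 without the drug and -1.44 and -1.62 with it. All inflamed animals were low and untreated polypoid replicate 1 was the lowest of the polypoid animals. The difference was 2.04 ± 0.29 (adjusted p = 0.0189). The call was lost, at 1.87 to 2.08, without untreated inflamed replicate 2 (adjusted p = 0.0551), 5-ASA inflamed replicate 1 (0.0887), 5-ASA polypoid replicate 1 (0.0666) or 5-ASA polypoid replicate 2 (0.0608). The other Tcf7 probe, A_52_P244711, differed by -0.03 ± 0.10 and had signals of only 125 to 213 units in all animals, against 668 to 1490 units for the first probe in polypoid tissue.

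Tcf7l2 encodes TCF4, the main TCF factor of the normal intestinal epithelium. Its brightest probe, A_52_P566741, read 2.41 and 1.74 in untreated inflamed, 3.22 and 2.98 in 5-ASA inflamed, 2.15 and 1.52 in untreated polypoid, and 1.90 and 2.05 in 5-ASA polypoid animals. Only the 5-ASA inflamed group stood apart, above the others, and the remaining groups overlapped. The tissue difference was -0.68 ± 0.21 (adjusted p = 0.119). All 4 of its probes gave a negative difference, from -0.07 to -0.68, and none passed the test. The fourth gene of the family, Tcf7l1, which encodes the mostly repressive factor TCF3, differed by -1.35 ± 0.35 (adjusted p = 0.0814), so 2 of the 4 family genes rose and 0 fell.

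Because Tcf7 and Lef1 are also T cell factors, T cell genes are given beside them. Of 21 measured T cell markers 0 rose and 0 fell in limma (7 at an unadjusted p under 0.05), and 2 had a positive difference; the median difference was -0.28. Their mean level ran from -1.16 to -0.76 in the inflamed animals and from -1.48 to -1.14 in the polypoid animals, and the marker Cd28 did not pass the filter. The lowest p among them belonged to Skap1 (-0.68, adjusted p = 0.0525) and to Cd3d, a subunit of the T cell receptor complex (-0.86, adjusted p = 0.0760). The part of T cells in the Tcf7 and Lef1 differences was not tested.

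**Figure D2:**
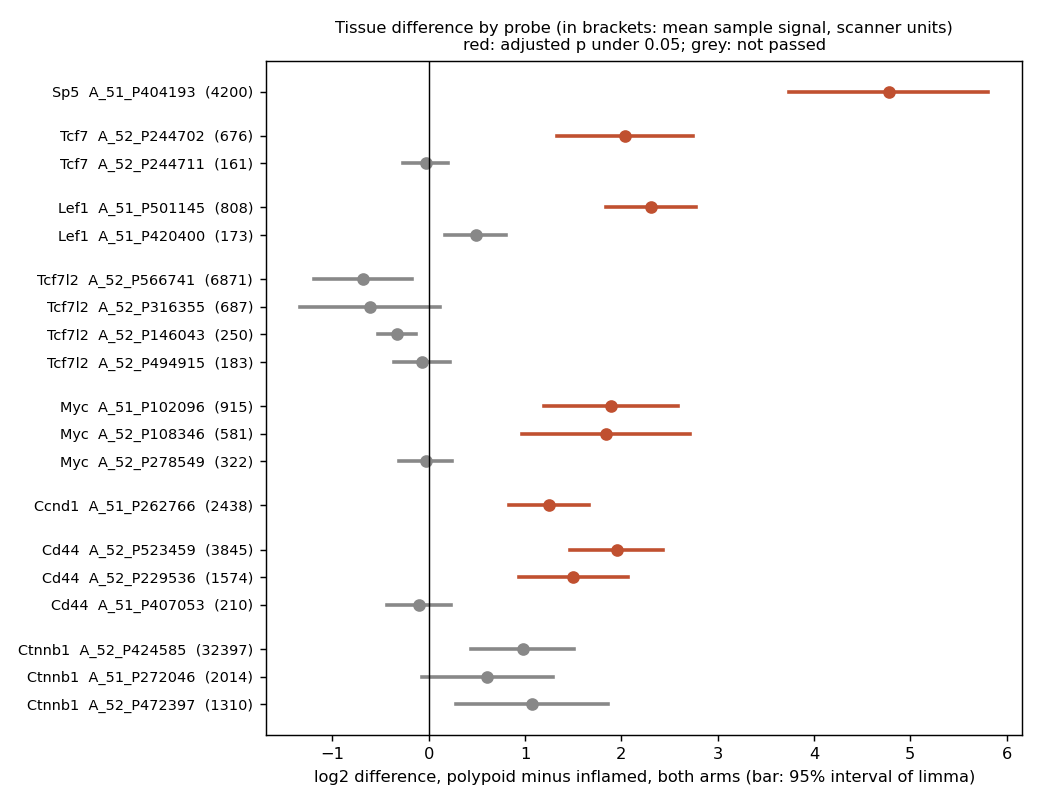
Difference between polypoid and inflamed tissue, both arms, for each of the 19 probes that passed the filter (log2; bar, 95% interval of the limma fit over probes), with the mean sample signal of the probe in scanner units in brackets. Red probes passed an adjusted p of 0.05; the dim probes of Tcf7, Myc and Cd44, with mean signals of 161, 322 and 210 units, lie at 0 while brighter probes of the same genes lie well above it.

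Sp5, a zinc-finger factor of the Sp/KLF family and one of the most direct transcriptional targets of beta-catenin, changed most among the 8. Probe A_51_P404193 read 0.08 and -0.63 in untreated inflamed, -0.57 and 1.18 in 5-ASA inflamed, 5.18 and 4.36 in untreated polypoid, and 4.94 and 4.68 in 5-ASA polypoid animals. The lowest polypoid animal was 3.18 above the highest inflamed one, 5-ASA inflamed replicate 2, and the arms overlapped within each tissue. The sample signal was 78.6 to 313 units in inflamed tissue and 2416 to 12865 units in polypoid tissue, and the spot was well above background on all arrays but 1, from an untreated inflamed animal. The difference was 4.77 ± 0.43 (adjusted p = 0.00664) and passed with each animal left out in turn (4.33 to 5.21, highest adjusted p = 0.0304). Of the other Sp factors, 5 of 8 were measured and 1 rose, Sp6 (1.15 ± 0.11, adjusted p = 0.00814); this call was lost without 5-ASA inflamed replicate 1, when 0 passed.

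The stretch of 250 bases before the Sp5 start site is shown because Sp5 had the largest difference. It was also the only one of 12 such windows of these genes to match CTTTGAT or CTTTGAA, the TCF core with its next bases. Of all windows 7.48% held either, so 1 of 12 is near that share, and some of the 12 overlap each other. The window is from RefSeq (GRCm38.p6), chr2:70474673-70474922, plus strand, with the match in capitals, 104 bases before the start.
Sp5: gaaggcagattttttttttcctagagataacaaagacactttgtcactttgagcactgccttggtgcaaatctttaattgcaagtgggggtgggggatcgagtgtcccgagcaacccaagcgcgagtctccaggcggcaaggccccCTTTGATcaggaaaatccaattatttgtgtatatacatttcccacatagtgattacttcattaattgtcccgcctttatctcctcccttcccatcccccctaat

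The motifs searched on both strands were CTTTGAT and CTTTGAA, and the shorter CTTTG, which both of them contain. CTTTGAT was found in 3.21%, CTTTGAA in 4.46% and either in 7.48% of all 32851 windows of this length. The Sp5 window held 4 matches of CTTTG, the match above included. Of all windows 0.773% held at least 4 and 48.6% held at least 1. Of the other members, windows were found for Tcf7, Lef1, Tcf7l2, Cd44 and Ctnnb1. For comparison, 1 match each is given for a factor that rose, a target that rose and the factor that did not, with the core in capitals (CAAAG is CTTTG read on the other strand).
Lef1: atgactcgtcCTTTGggtgctagga
Cd44: agtttagtggCAAAGgagaaactgg
Tcf7l2: tcccggcgccCAAAGgatcattgtt
They lie at chr3:131110126-131110150 on the plus strand, chr2:102901814-102901838 on the minus strand and chr19:55741689-55741713 on the plus strand (GRCm38.p6). Over all members, 8 of the 12 windows held CTTTG. A match describes the letters only; binding was not measured.

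Myc, the growth-promoting transcription factor and a textbook beta-catenin target in colon tumours, read -1.76 and -2.21 in untreated inflamed and -2.22 and -1.43 in 5-ASA inflamed animals on probe A_51_P102096. In polypoid tissue it read -0.35 and 0.67 without the drug and -0.09 and -0.28 with it. Untreated polypoid replicate 2 was the highest and all polypoid animals were above all inflamed ones. The difference was 1.89 ± 0.29 (adjusted p = 0.0219). The call was lost, at 1.70 to 1.94, without untreated inflamed replicate 2 (adjusted p = 0.0623), 5-ASA inflamed replicate 1 (0.0926), 5-ASA polypoid replicate 1 (0.0757) or 5-ASA polypoid replicate 2 (0.0685). Probe A_52_P108346 gave 1.84 ± 0.36 (adjusted p = 0.0447 over probes), and this call was lost in 7 of the 8 fits that each left out 1 animal (adjusted p 0.0653 to 0.145 in those 7; it held without untreated polypoid replicate 1), in the deposited value table (0.0622) and with no filter (0.0596). The third probe, A_52_P278549, at 215 to 458 units, differed by -0.03 ± 0.11.

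Of 27 measured genes known as Myc targets, most of them in ribosome production, 5 rose and 0 fell, and all 27 had a positive difference (median 0.58). They were Rrs1 (1.26 ± 0.13, adjusted p = 0.00886) and Nop58 (0.92 ± 0.14, 0.0209), both in ribosome assembly, the growth regulator Pa2g4 (0.999 ± 0.16, 0.0264), the cell cycle kinase Cdk4 (1.26 ± 0.21, 0.0291) and Wdr43, which was named only once its value was known. The count was 3 without untreated inflamed replicate 1, 1 without untreated inflamed replicate 2, 2 without untreated polypoid replicate 2, 1 without either 5-ASA polypoid animal and 0 without 5-ASA inflamed replicate 1. It was 3 in the deposited value table and 9 with the replicate number as a block. Among 16 Myc relatives and partners 2 rose, Mycl (0.78 ± 0.14, adjusted p = 0.0346) and Mycn (1.98 ± 0.41, 0.0496), and 0 fell. This count fell to 0 without either untreated inflamed animal, either 5-ASA inflamed animal, untreated polypoid replicate 2 or 5-ASA polypoid replicate 2, and to 1 without 5-ASA polypoid replicate 1, in the deposited value table, with the mean of a gene's probes, with no filter and with trended robust variance.

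Ccnd1 encodes cyclin D1, which with CDK4 or CDK6 opens the G1 phase of the cell cycle. Its 1 probe, A_51_P262766, read -1.20 and -1.24 in untreated inflamed, -1.38 and -1.10 in 5-ASA inflamed, -0.12 and 0.39 in untreated polypoid, and -0.34 and 0.14 in 5-ASA polypoid animals. The inflamed animals lay close together and all below the polypoid ones, and the arms overlapped in both tissues. The difference was 1.25 ± 0.17 (adjusted p = 0.0177). Without 5-ASA inflamed replicate 1 it was 1.18 (adjusted p = 0.0883), without 5-ASA inflamed replicate 2 it was 1.32 (0.0536) and without 5-ASA polypoid replicate 2 it was 1.13 (0.0526), so the call was lost in those 3 fits.

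In the cyclin D and RB pathway, 4 of 22 measured genes rose and 0 fell, with a median difference of 0.12. They were the CDK inhibitor Cdkn1c (2.30 ± 0.31, adjusted p = 0.0164), the cyclin D partners Cdk6 (1.45 ± 0.24, 0.0284) and Cdk4, given above, and the cyclin Ccne1 (1.12 ± 0.23, 0.0476). Cdkn1c, which holds cells out of the cycle, had the largest difference of the 4; the other 3 are known to promote entry into it. The count was 2 without either untreated inflamed animal or without untreated polypoid replicate 2, 1 without 5-ASA inflamed replicate 2 or 5-ASA polypoid replicate 1, and 0 without 5-ASA inflamed replicate 1 or 5-ASA polypoid replicate 2. It was 2 in the deposited value table and also with the mean of a gene's probes.

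Cd44 encodes a cell surface receptor for hyaluronan that is found on crypt epithelium, leukocytes and stroma. Probe A_52_P523459 read -0.45 and -1.16 in untreated inflamed, 0.21 and -0.33 in 5-ASA inflamed, 1.21 and 1.39 in untreated polypoid, and 1.73 and 1.76 in 5-ASA polypoid animals. As for Lef1, the groups rose in that order with no overlap between neighbours, again without a count over all genes. The difference was 1.95 ± 0.20 (adjusted p = 0.00960) and passed with each animal left out in turn (1.77 to 2.13, highest adjusted p = 0.0429). Probe A_52_P229536 rose as well (1.50 ± 0.23, adjusted p = 0.0254 over probes), while probe A_51_P407053, at 149 to 252 units, differed by -0.10 ± 0.14. The call of A_52_P229536 was lost when either untreated inflamed, either 5-ASA inflamed or either 5-ASA polypoid animal was left out (adjusted p 0.0511 to 0.119).

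Of 22 measured Cd44 ligands and partners 3 rose and 0 fell: Spp1, the gene of the ligand osteopontin (3.54 ± 0.46, adjusted p = 0.0155), and the proteases Mmp14 (1.29 ± 0.22, 0.0283) and Mmp9 (1.28 ± 0.22, 0.0312). The count was 0 when 5-ASA inflamed replicate 1 was omitted, and 1 when untreated polypoid replicate 2 was omitted or with the mean of a gene's probes. Markers of cells that can carry Cd44 moved in different ways, where 3.97% of all genes rose and 1.97% fell. Of 16 measured macrophage and other myeloid markers 0 rose and 0 fell in limma (3 at an unadjusted p under 0.05; median -0.10; mean level 1.14 to 1.71 in inflamed and 1.11 to 1.55 in polypoid animals). Of 11 measured neutrophil markers 5 rose, S100a9, S100a8, Retnlg, Mmp9 and Mmp8, and 0 fell, with a mean level of 0.24 to 0.53 in inflamed and 1.39 to 2.23 in polypoid animals; Camp, Ngp and Elane did not pass the filter. Of 14 fibroblast markers 1 rose, Vim, and 2 fell, Postn and Fbln2 (mean level -0.77 to -0.32 in inflamed and -1.21 to -0.47 in polypoid animals). Among these 14, 6 had a positive difference and 9 an unadjusted p under 0.05 in limma (median -0.35). The part of neutrophils in the Cd44 difference was not tested.

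Epithelial markers give the other side of that comparison. Of 15, 1 rose, the junction protein Cldn4 (1.41 ± 0.15, adjusted p = 0.0111), and 0 fell. Only 5 had a positive difference, and 7 had an unadjusted p under 0.05 in limma. The median difference was -0.29 over both arms, -0.02 in untreated and -0.58 in 5-ASA mice. Their mean level was 2.88 to 3.33 in inflamed and 2.63 to 3.22 in polypoid animals, so the ranges overlapped. Of 10 smooth muscle markers 4 fell, Lmod1, Myl9, Tagln and Cnn1, with a mean level of 1.06 to 2.81 in inflamed and 0.45 to 0.92 in polypoid animals. Of 10 measured B and plasma cell markers 1 fell, Mzb1, and 9 had a negative difference (median -1.35; 4 at an unadjusted p under 0.05), with a mean level of 1.49 to 2.92 in inflamed and 0.30 to 1.70 in polypoid animals. Of 7 measured endothelial markers 0 rose and 0 fell in limma (0 at an unadjusted p under 0.05). The mean level of the smooth muscle markers was thus lower in every polypoid animal than in any inflamed one. Among all genes, taken singly, 7.91% had that arrangement. The mean level of B and plasma cell markers overlapped between tissues. The part of either in the tissue difference of the 8 genes was not tested.

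The other genes of the pathway were counted by role, beside 3.97% of all genes rising and 1.97% falling. Among 27 measured nuclear cofactors of beta-catenin 2 rose and 0 fell (median 0.18): Nlk, a kinase that phosphorylates TCF/LEF factors (1.19 ± 0.19, adjusted p = 0.0236), and Tle1, a Groucho-type repressor (1.15 ± 0.22, 0.0399). That count was 0 without either 5-ASA inflamed or either 5-ASA polypoid animal, and 1 without either untreated inflamed animal or untreated polypoid replicate 2. Among 25 measured genes of the destruction complex and its regulators 1 rose, Axin2 (3.48 ± 0.27, adjusted p = 0.00490), the one scaffold gene that is itself a Wnt target, and 0 fell; the count was 2 without untreated inflamed replicate 2 or untreated polypoid replicate 1, 2 with the processed signals and 3 with the replicate number as a block. Of 9 measured adherens junction genes 0 rose and 0 fell in limma (1 at an unadjusted p under 0.05); the lowest p was that of Cdh1, the gene of E-cadherin (0.38 ± 0.12, adjusted p = 0.121).

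Of 40 other genes known as beta-catenin targets, 19 rose and 2 fell, with a median difference of 0.84. This list was chosen with earlier results of these data known, so its count is not independent of them. The 4 with the lowest adjusted p were the protease gene Mmp7 (3.95 ± 0.23, 0.00343), the secreted inhibitors Wif1 (5.34 ± 0.36, 0.00380) and Notum (3.68 ± 0.26, 0.00399), and Axin2. The 2 that fell, named after their values were seen, were Cdx1, an intestinal identity factor (-1.14 ± 0.15, adjusted p = 0.0173), and Ascl2, a crypt stem cell factor (-0.53 ± 0.10, 0.0419). The number of calls was 9 without 5-ASA inflamed replicate 1, 13 without 5-ASA inflamed replicate 2 and 12 without 5-ASA polypoid replicate 2, against 21 with all animals. With scan session as a block it was 0 here and in each of the other lists.

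**Figure D3:**
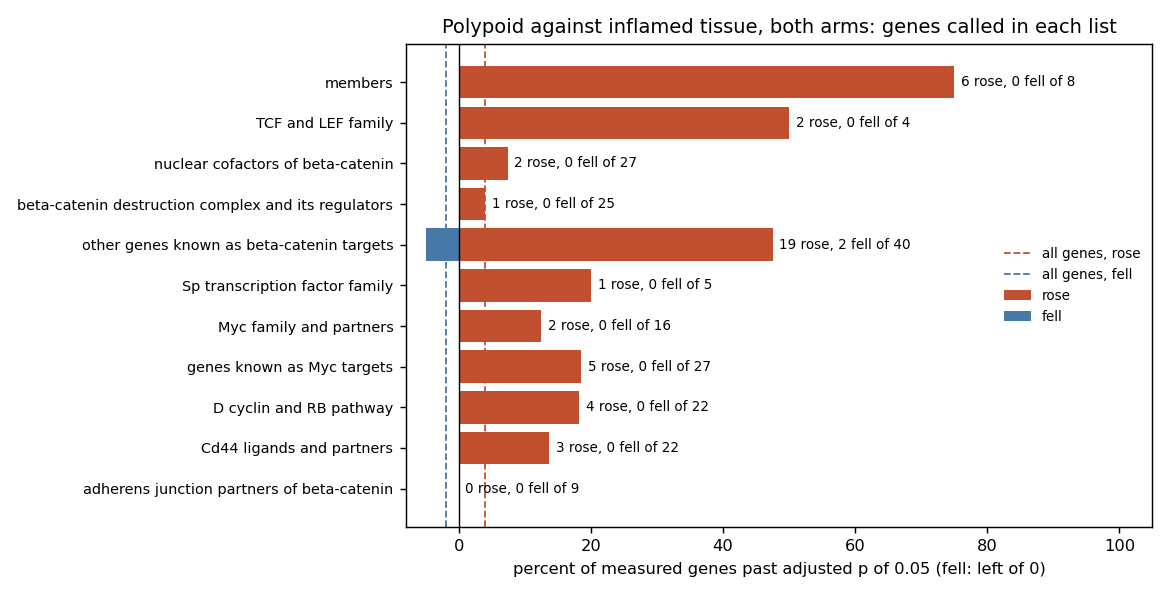
Share of measured genes that rose (right of 0) or fell (left of 0) in polypoid against inflamed tissue, both arms, for the 8 genes and for each pathway list; dashed lines mark the shares over all genes, 3.97% rising and 1.97% falling. The 8 genes and the other beta-catenin targets hold most of the calls, while the destruction complex and the adherens junction list stay near the background. The 8 genes and the lists were chosen with earlier results of these data known.

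Taken within each arm, the tissue difference had the same direction for all 8 genes, but the calls differed. In untreated mice 0.164% of genes were called (35 of 21301; 0.16% rose and 0.00469% fell; 2692 at an unadjusted p under 0.05), and 0 of the 8 members passed in limma, although 7 had an unadjusted p under 0.05. Sp5 differed by 5.05 ± 0.60 (adjusted p = 0.0576), Lef1 by 2.05 ± 0.27 (0.0722), Cd44 by 2.10 ± 0.28 (0.0735), Ccnd1 by 1.36 ± 0.24 (0.125) and Myc by 2.14 ± 0.41 (0.143). Tcf7 differed by 1.73 ± 0.41 (0.194), Ctnnb1 by 0.98 ± 0.31 (0.291) and Tcf7l2 by -0.25 ± 0.30 (0.761). Of the 8, Lef1 and Cd44 passed with the processed signals, Lef1 with the mean of a gene's probes and with the replicate block, and Sp5 with trend and robust variance.

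In mice given 5-ASA 3.06% of genes were called, and 4 of the 8 rose: Sp5 (4.50 ± 0.60, adjusted p = 0.0260), Lef1 (2.57 ± 0.27, 0.0176), Cd44 (1.80 ± 0.28, 0.0355) and Tcf7 (2.35 ± 0.41, 0.0446). Ccnd1 (1.14 ± 0.24, 0.0677), Myc (1.64 ± 0.41, 0.0938), Ctnnb1 (0.97 ± 0.31, 0.162) and Tcf7l2 (-1.12 ± 0.30, 0.107) did not pass. When any 1 of the 4 animals of this arm was left out, 0 of the 8 passed. The difference between the arms was tested directly and passed for 0 of 21301 genes in limma, 1272 of them at an unadjusted p under 0.05. Among the 8 genes the lowest p of that test was that of Tcf7l2 (-0.88 ± 0.42, adjusted p = 0.865), and for Sp5 the 95% interval of the difference ran from -2.62 to 1.53.

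A pair of animals scanned in the same session allows the tissue difference to be read without a change of session. Untreated polypoid replicate 2 against untreated inflamed replicate 2, both in session 3, gave 5.00 for Sp5, 2.88 for Myc, 2.55 for Cd44, 2.40 for Tcf7, 2.15 for Lef1, 1.63 for Ccnd1, 1.52 for Ctnnb1 and -0.23 for Tcf7l2. This is 1 animal against 1, and both also belong to the untreated comparison. Of the 6 genes that rose over both arms, 5 differed more within that session than between the untreated groups. Sp5 differed less (5.00 against 5.05). The untreated group means include this pair, so the count only sets the replicate 2 animals against the replicate 1 animals. The share of all genes that did the same was not counted. Session as a block leaves 1 residual degree of freedom. With it 0 of the 8 passed, and the lowest adjusted p among them was 0.334 in limma. The differences were 5.48 for Sp5, 2.58 for Tcf7, 2.43 for Lef1, 2.63 for Myc, 1.59 for Ccnd1, 2.41 for Cd44, 1.60 for Ctnnb1 and -0.36 for Tcf7l2. They also rest on untreated inflamed replicate 2, the only inflamed animal in session 3, so they are not independent of the pair above. That animal was the lowest inflamed one for Sp5, Lef1, Cd44 and Ctnnb1.

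The drug was compared within each tissue and over both, and these comparisons use the same animals as the tissue comparisons. No gene passed in limma: the count was 0 of 21301 over both tissues (1360 at an unadjusted p under 0.05), 0 in inflamed tissue (933) and 0 in polypoid tissue (1653), so 0% of genes were called and 0 of the 8 in each. At an unadjusted p under 0.05 stood 4 of the 8 over both tissues, 3 in inflamed and 2 in polypoid tissue. Over both tissues, Lef1 was higher with 5-ASA by 0.83 ± 0.19 (unadjusted p = 0.00501, limma; adjusted p = 0.766), in 2 of 2 animals above both untreated animals in each tissue. Ctnnb1 was higher by 0.82 ± 0.22 (unadjusted p = 0.00973, limma; adjusted p = 0.766) and Cd44 by 0.59 ± 0.20 (unadjusted p = 0.0248, limma; adjusted p = 0.768), likewise without overlap between arms in either tissue. The share of all genes with such an arrangement was not counted, so no more is read from it.

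Tcf7l2 was higher with 5-ASA by 1.02 ± 0.30 in inflamed tissue (adjusted p = 0.975) and by 0.14 ± 0.30 in polypoid tissue (adjusted p = 0.989), and its groups overlapped in polypoid tissue only. Lef1 was higher by 0.57 ± 0.27 in inflamed and by 1.09 ± 0.27 in polypoid tissue, and Ctnnb1 by 0.82 ± 0.31 in each. Leaving out 1 animal moved the inflamed difference of Ctnnb1 to 0.36 (without untreated inflamed replicate 2) or 1.28 (without untreated inflamed replicate 1), that of Lef1 to 0.32 or 0.84 and that of Cd44 to 0.39 or 1.101 in the same 2 fits. In polypoid tissue the range was 0.74 to 0.89 for Ctnnb1, 0.79 to 1.39 for Lef1 and 0.35 to 0.54 for Cd44. Sp5, Tcf7, Myc and Ccnd1 differed by 0.31, -0.05, -0.09 and -0.12 over both tissues, with 95% intervals of -0.73 to 1.35, -0.76 to 0.65, -0.80 to 0.61 and -0.54 to 0.29. Within sessions the drug difference of Lef1 was 0.38 in inflamed tissue (session 1) and 1.22 and 0.95 in polypoid tissue (sessions 2 and 3). That of Cd44 was 0.66, 0.52 and 0.36 in the same order, and that of Ctnnb1 was 0.56, 0.91 and 0.72. The other probes of these genes did not all follow. The second Lef1 probe, A_51_P420400, differed by -0.03 ± 0.13 over both tissues and by -0.03, -0.10 and 0.10 within the 3 sessions. A_52_P229536 of Cd44 gave 0.17, 0.81 and -0.67, and A_51_P272046 of Ctnnb1 gave 0.32, 0.74 and -0.20. The dim Cd44 probe A_51_P407053 gave 0.16, 0.05 and -0.23. The remaining Ctnnb1 probe, A_52_P472397, was higher with 5-ASA in each of these sessions (0.76, 0.29 and 1.16).

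No cell type marker passed in a drug comparison, where 0 of 21301 genes were called. The mean levels of some marker lists lay apart between the arms, with 2 animals in each group, and some of these are given here. How often such an arrangement occurs among all genes was not counted. In inflamed tissue the mean level of smooth muscle markers was 2.81 and 1.98 without the drug and 1.06 and 1.44 with it, and that of epithelial markers was 3.07 and 2.88 without and 3.33 and 3.33 with it. In polypoid tissue epithelial markers read 3.14 and 3.22 without the drug and 2.90 and 2.63 with it, and B and plasma cell markers read 1.70 and 1.46 without and 0.39 and 0.30 with it. T cell markers were at -1.43 and -1.14 in untreated and -1.48 and -1.29 in 5-ASA polypoid animals, the latter being the group in which Lef1 was highest. The part of these markers in the drug differences was not tested.

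**Figure D4:**
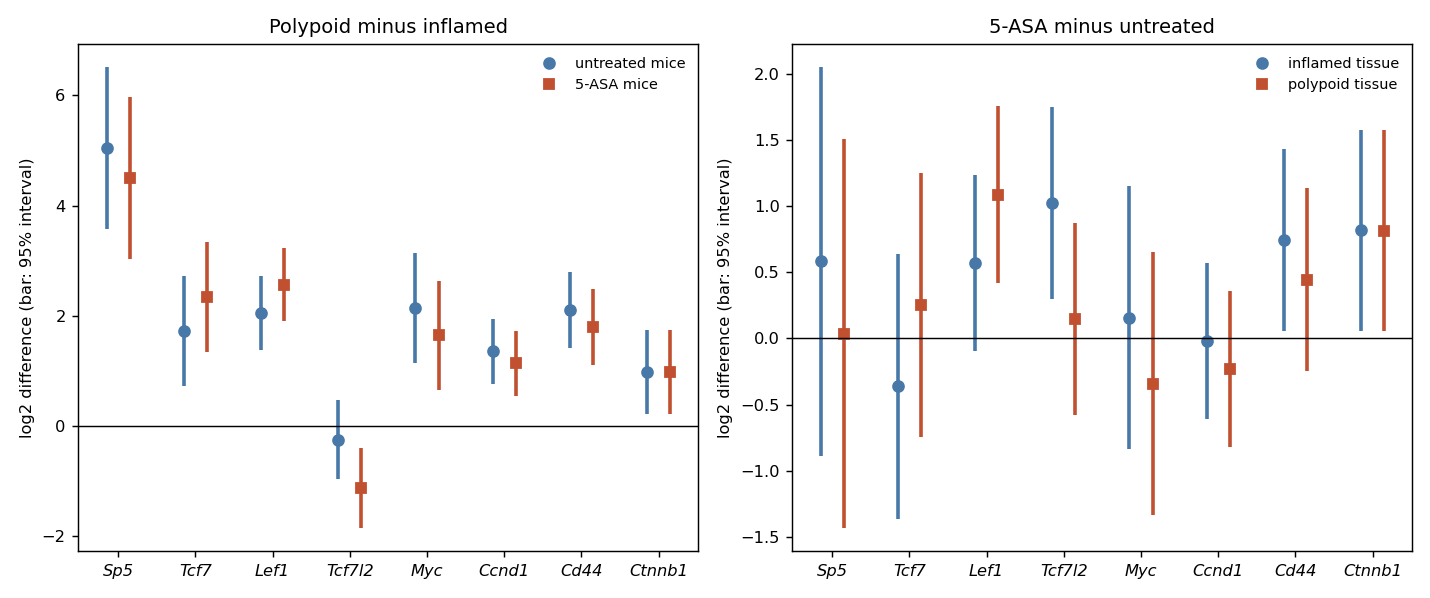
Log2 differences of the 8 genes with 95% intervals of the limma fit: polypoid minus inflamed in each arm (left) and 5-ASA minus untreated in each tissue (right). The tissue intervals of both arms overlap for every gene, and on the right those of Lef1 in polypoid, Tcf7l2 and Cd44 in inflamed and Ctnnb1 in both tissues lie above 0 before adjustment over all genes.

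The genes most like each member were found by the root mean square (RMS) difference in log2 between values centred on each gene's mean, over the 8 animals and among 21298 genes. Sp5 was closest to Nkd1, a feedback inhibitor of Wnt signalling (0.18), then to the defensins Defcr6 (0.33) and Defa1 (0.33), where Sp5 itself spanned 5.81. Myc was closest to Tnfrsf12a, the receptor of the cytokine TWEAK (0.17), then Gsta4 and C730049P21. Ctnnb1 was closest to Tnik, a kinase known to act with TCF7L2 (0.08), then Fam135a and Tbcel. Because tissue makes up most of the spread of Sp5 and Myc, a small RMS difference there mostly means a tissue difference of like size: 4.87 for Nkd1 and 2.14 for Tnfrsf12a.

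For the other members the closest genes were Krt7, Avpi1 and Rgs12 for Tcf7 (0.28 to 0.30), Cd244a, Mex3b and Nbea for Lef1 (0.20 to 0.29), and Ehhadh, Efnb2 and B3gnt2 for Tcf7l2 (0.12 to 0.14). For Ccnd1 they were Skp1, LOC242205 and Nhp2 (0.14 to 0.18), and for Cd44 they were TC1537769, an unnamed transcript, Ptpre and Dusp14 (0.17 to 0.26). No member was among the 3 genes closest to another member.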

How the data were processed

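Gene expression was measured on 15 arrays of 8 animals. Agilent Feature Extraction 9.1.1.1 made the deposited scanner files, per the file headers: each spot has mean and background intensity, a processed intensity and a log10 ratio of the dyes. A deposited table gives log2 ratios to the reference, with processing not given in the sources used here. Set against the scanner's ratio over spots above 1000 units, its slope was 2.65 to 2.99, and column medians were -0.012 to 0.031.

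In R 4.3.3 with limma 3.58.1, background was corrected by normexp (offset 50) and channels by loess within arrays. Dye-swapped arrays were turned and outlier spots left out. Animal plus dye was fitted to give 8 values per probe, and a gene was read from its brightest probe that passed the filter. Group means were compared in limma (4 residual and 2.14 prior degrees of freedom). The fit was also run on simulated data without differences between sessions, so that run does not bear on the part of session here. With 2 animals per group, their number limits precision. Names and promoters came from RefSeq (GRCm38.p6); no probe positions are given.

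Named are every member and probe, up to 4 genes of each of 10 gene lists and 8 marker lists with the lowest adjusted p that passed (else up to 2), and the 3 genes most like each member. The members and lists were chosen with earlier results of these data known. Alternatives were the processed signals, the value table, the mean of a gene's probes, no filter, Aquantile, each animal left out, replicate number or scan session as a block, and trended robust variance. Same-numbered animals were not taken as pairs: their deviations from group means correlated at 0.03 to 0.36, not over 0.1 in every pair.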

Additional observations from a re-analysis of the deposited data

How the results depend on the processing

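The sign of the tissue difference over both arms held for each of the 8 genes in all 16 alternatives. With the processed signals 7 passed, and 6 with the value table, the mean of probes, no filter and Aquantile, which leaves log ratios as they are. Leaving out 1 animal, which also lowers the degrees of freedom to 3, gave 3 to 7 of the 8 genes over both arms, 0 to 4 in 5-ASA mice and 3 to 8 of the 19 probes (8 with all animals). With scan session as a block 0 genes passed over both arms, 0 in 5-ASA mice and 0 probes. In untreated mice 2 passed with processed signals, and 1 each with the mean of probes, trended robust variance and the replicate block. The replicate block gave 7 over both arms, 5 in 5-ASA mice and 10 probes, and 0 in each drug comparison and in the test between arms. Some differences near 0 changed sign, and the cause was not tested. With the session block, the drug difference of Sp5 over both tissues was -0.31 and Myc probe A_52_P278549 gave 0.059 between tissues. With 1 animal left out, the drug difference over both tissues ran from -0.13 to 0.75 for Sp5, -0.35 to 0.24 for Tcf7, -0.35 to 0.16 for Myc and -0.25 to 0.0032 for Ccnd1. For Tcf7l2 it ran from -0.17 to 0.46 in polypoid tissue, and its tissue difference in untreated mice from -0.58 to 0.090. With 1 animal left out, 4 probes with differences near 0 ran from -0.081 to 0.011 (Tcf7 A_52_P244711), -0.15 to 0.0091 (Tcf7l2 A_52_P494915), -0.11 to 0.051 (Myc A_52_P278549) and -0.22 to 0.016 (Cd44 A_51_P407053). Why these probes are near 0 was not tested, and they were not placed on their transcripts here.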
